A study of Rattus norvegicus with 8 samples.

Results

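The genes Map2, Lrrc7, Cdh8, Scn3b, Sv2c, Gria1, Slc5a7, Slitrk5 and Gal are best known from neurons and synapses, and were measured here in 2 great vessels. They are 9 of 14506 genes measured, and they were picked because earlier results of these data showed a tissue difference, a strain difference or a wide gap between replicate arrays. Their own values in those comparisons are therefore a description: no p-value is given for them, and counts of those past a threshold only describe the set. RNA came from the ductus arteriosus (DA), a fetal shunt between the pulmonary artery and the aorta that shuts in the newborn, and from the aorta of full-term rat neonates 1 h after birth. The 4 groups, each with 2 Affymetrix Rat Gene 1.0 ST arrays, were Brown-Norway (BN) DA, BN aorta, Fischer344 (F344) DA and F344 aorta. The labels record no treatment or engineered allele in any group. They state that tissues were pooled, but not whether the replicates are separate pools, so any p-value below reflects nothing beyond the spread between these arrays. Values are on the log2 scale, where a difference of 1 is 2-fold.

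Neurons carry signals along axons with voltage-gated sodium channels, release transmitter from synaptic vesicles and receive it at receptors held by a postsynaptic scaffold. Great vessels are supplied by autonomic nerves whose cell bodies lie mostly outside the vessel wall. Several genes of this kind are also transcribed outside the nervous system, in smooth muscle, endocrine or mesenchymal cells. Among the genes described here, Map2 encodes a protein that stabilizes dendritic microtubules and Lrrc7 encodes densin, a scaffold of the postsynaptic density. Cdh8 encodes a type II cadherin and Slitrk5 a leucine-rich repeat protein, both of which act in cell and synapse adhesion. Scn3b encodes an auxiliary beta subunit of sodium channels, and Gria1 a subunit of AMPA-type glutamate receptors. Sv2c encodes a synaptic vesicle glycoprotein, Slc5a7 the high-affinity choline transporter of cholinergic terminals, and Gal the neuropeptide galanin.

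The sequences just upstream of 4 of these genes are shown: Lrrc7 and Cdh8, which were lower in DA, Slc5a7, which was higher in DA, and Gal, which was higher in BN. They are the 250 bases before the annotated gene start in RefSeq (build GRCr8, an assembly of a BN rat), 5′ to 3′ on the gene's strand. RefSeq held an upstream window for 7 of the 9 genes, all but Scn3b and Gria1, and those of Map2, Slitrk5 and Sv2c are not printed. Capitals mark matches on either strand to 3 short motifs. TGACG is the core of the element through which cyclic AMP acts. GGGCGG is the box bound by factors of the Sp family. TATAAA is the box that sets the start of transcription at some promoters. These motifs were chosen with the sequences in view. The windows of Map2 and Slitrk5 held none of these 3 motifs.
Gal (chr1:210084573-210084822, minus strand): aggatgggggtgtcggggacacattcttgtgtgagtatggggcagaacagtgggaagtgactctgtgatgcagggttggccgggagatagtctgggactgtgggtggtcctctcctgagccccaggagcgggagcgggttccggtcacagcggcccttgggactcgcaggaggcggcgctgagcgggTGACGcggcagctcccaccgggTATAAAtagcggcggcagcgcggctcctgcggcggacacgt
Slc5a7 (chr9:7953510-7953759, minus strand): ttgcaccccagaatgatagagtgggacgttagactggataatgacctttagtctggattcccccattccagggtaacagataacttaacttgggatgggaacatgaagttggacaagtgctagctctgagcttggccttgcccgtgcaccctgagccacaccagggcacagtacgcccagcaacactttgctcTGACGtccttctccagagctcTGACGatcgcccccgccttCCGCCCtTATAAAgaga
Lrrc7 (chr2:250293719-250293968, minus strand): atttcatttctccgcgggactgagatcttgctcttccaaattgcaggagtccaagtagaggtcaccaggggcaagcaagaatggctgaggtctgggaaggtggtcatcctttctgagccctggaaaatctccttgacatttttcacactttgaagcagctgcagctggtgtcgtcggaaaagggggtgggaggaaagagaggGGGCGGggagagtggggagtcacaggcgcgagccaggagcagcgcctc
Cdh8 (chr19:5500216-5500465, plus strand): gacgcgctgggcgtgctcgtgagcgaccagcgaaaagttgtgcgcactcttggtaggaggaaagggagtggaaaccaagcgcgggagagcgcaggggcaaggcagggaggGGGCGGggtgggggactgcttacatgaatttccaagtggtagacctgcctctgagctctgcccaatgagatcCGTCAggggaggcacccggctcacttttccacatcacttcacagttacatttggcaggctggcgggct
TGACG was found upstream of Gal, Slc5a7 and Cdh8, and in 18.2% of 33469 windows of the same length over all genes. GGGCGG was found upstream of Sv2c, Lrrc7, Slc5a7 and Cdh8 (30.5% of all windows), and TATAAA upstream of Gal and Slc5a7 (12.9%). Both parts of the site of REST, a repressor of neuronal genes, were searched on both strands too. The left part, CAGCACC, was found upstream of Slitrk5 (5.43% of all windows). The right part, GGACAG, was found upstream of 0 of the 7 genes (18.2% of all windows). A match describes letters in this window and is no measurement of binding.

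The label of the set, neuronal and synaptic, was checked against markers of neurons. Tubb3 (neuronal tubulin) lay between 6.59 and 7.08 on the 8 arrays, Snap25 (vesicle fusion) between 5.64 and 6.09, Elavl4 (a neuronal RNA-binding protein) between 5.34 and 5.88, and Stmn2 (growth cones) between 5.63 and 6.76. Th and Dbh, the enzymes of noradrenaline synthesis, lay between 5.99 and 6.53 and between 6.3 and 6.8. Slc18a3, the vesicular acetylcholine transporter, lay between 5.82 and 6.1, and Sox10, of Schwann cells and their precursors, between 6.87 and 7.47. None of these 8 markers passed the test in any contrast (limma adjusted p over all genes), and their values spanned 5.34 to 7.47 over all arrays. Of 19 pan-neuronal genes 17 had a mean below that of the median gene (7.48), as did 12 of 15 noradrenergic, 10 of 11 cholinergic and 11 of 13 Schwann cell and glial genes. Probe sets differ in brightness for equal amounts of RNA, so these levels are no measure of abundance. The smooth muscle genes Acta2, Tagln, Myh11 and Cnn1 lay between 11.73 and 13.82 on all arrays. Of the pan-neuronal genes, 2 rose in F344 DA against F344 aorta, Syt1 and the axonal adhesion gene L1cam, where 8.87% of all genes rose, and 0 passed in the other contrasts. The L1cam call was lost after repeated quantile normalization and without any 1 of the 4 F344 arrays.

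**Figure D1:**
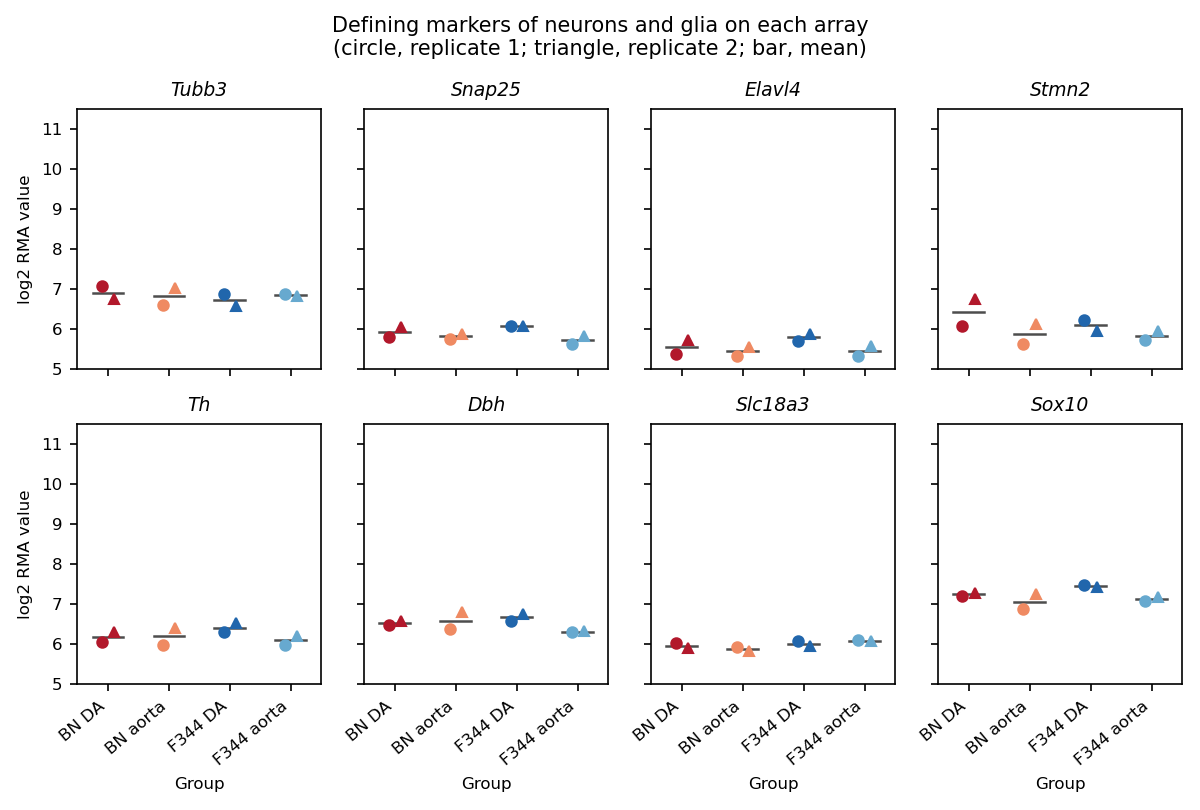
Log2 RMA values (vertical axes) of 8 markers of neurons and glia on each array, by group (horizontal axes), with circles for replicate 1, triangles for replicate 2 and bars for the mean of 2 arrays. All values lie between 5.34 and 7.47, on the same vertical scale as the plot of the 9 genes.

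Among the 8 arrays, those of BN DA stood apart from each other. Over all genes the SD of the difference between replicates was 0.349 in BN DA, against 0.258 in BN aorta, 0.223 in F344 DA and 0.196 in F344 aorta. The mean of 10 thymocyte and lymphocyte markers reached 7.07 for BN DA replicate 1, against 5.88 to 5.97 for the other 7 arrays. The mean of 11 cardiomyocyte markers reached 7.18 for BN DA replicate 2, against 6.58 to 6.84 elsewhere. The erythroid mean was higher for the first array of every group, at 8.71 and 7.61 in BN DA. The mean of 7 endothelial markers was 8.39 and 8.29 on the F344 DA arrays and between 8.68 and 8.99 on the others.

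The cytoskeletal, scaffold and adhesion genes Map2, Lrrc7 and Cdh8 were lower in DA than in aorta in both strains. Map2 had 9.25 and 9.45 in BN DA, 10.66 and 10.54 in BN aorta, 8.68 and 8.52 in F344 DA, and 10.9 and 10.75 in F344 aorta. Lrrc7 had 6.27 and 6.9 in BN DA, 8.4 and 8.06 in BN aorta, 5.73 and 5.82 in F344 DA, and 7.24 and 7.27 in F344 aorta. Cdh8 had 6.43 and 7.21 in BN DA, 8.66 and 8.26 in BN aorta, 6.05 and 5.9 in F344 DA, and 8.42 and 8.54 in F344 aorta. For each of these genes all 4 DA arrays lay below all 4 aorta arrays. Of all genes, 12.5% were lower in DA in both strains with no overlap within a strain. The Map2 difference, DA minus aorta, was -1.25 ± 0.13 in BN and -2.23 ± 0.13 in F344 (SE from limma). Lrrc7 differed by -1.65 ± 0.20 in BN and by -1.48 ± 0.20 in F344, and Cdh8 by -1.64 ± 0.24 in BN and by -2.50 ± 0.24 in F344. In bulk tissue, fewer cells of a type and less RNA per cell cannot be told apart.

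Between strains these 3 genes differed by vessel. All were higher in BN DA than in F344 DA without overlap, Map2 by 0.75 ± 0.13, Lrrc7 by 0.81 ± 0.20 and Cdh8 by 0.84 ± 0.24. In aorta, Lrrc7 was higher in BN by 0.98 ± 0.20, Map2 was lower in BN by a small and non-overlapping margin (-0.23 ± 0.13), and Cdh8 overlapped (-0.02 ± 0.24). BN and F344 therefore lay closest in aorta for Cdh8 and Map2, and the lowest arrays of all were those of F344 DA for each of the 3 genes.

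**Figure D2:**
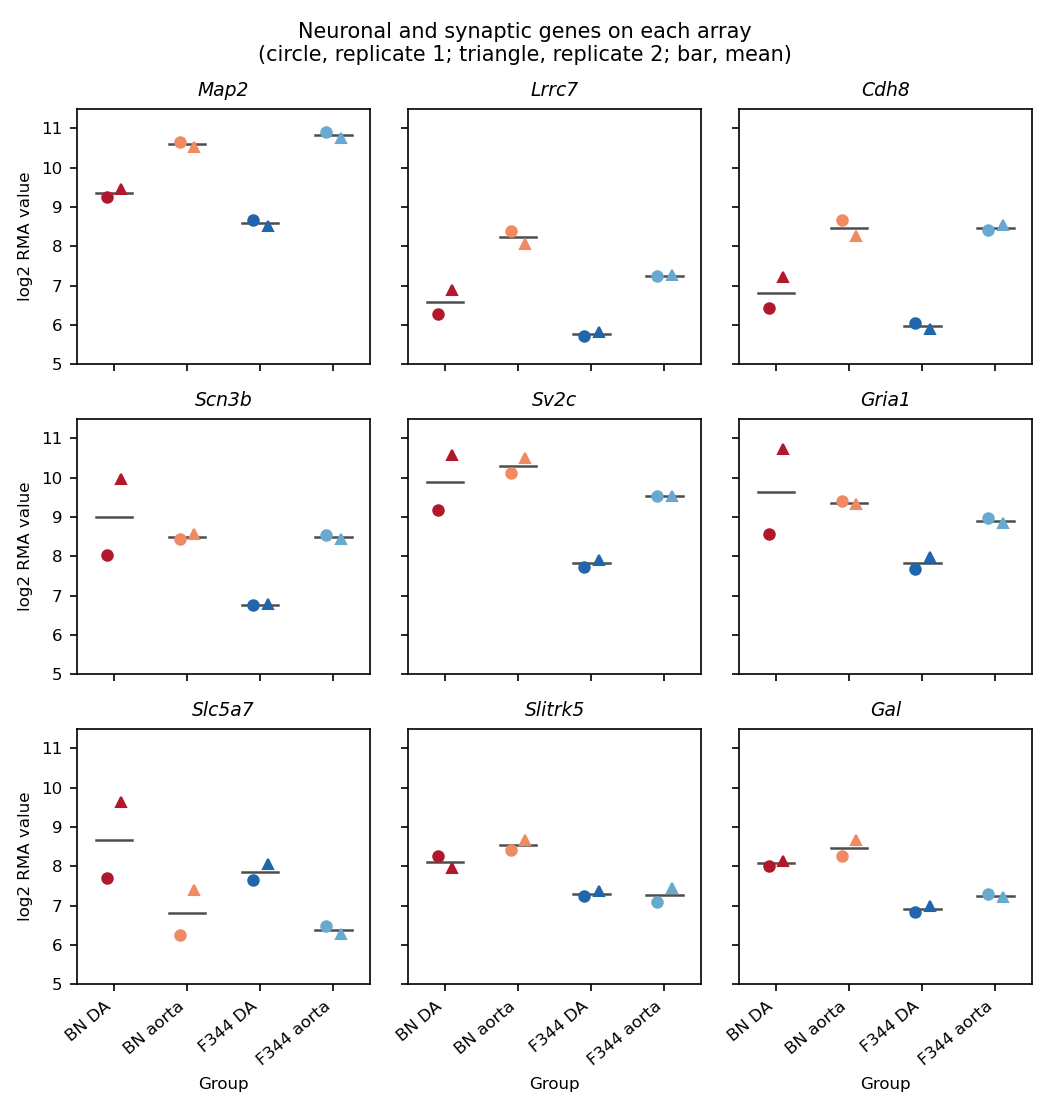
Log2 RMA values (vertical axes) of the 9 genes on each array, by group (horizontal axes), with circles for replicate 1, triangles for replicate 2 and bars for the mean of 2 arrays. DA lies below aorta in both strains for Map2, Lrrc7 and Cdh8, the BN DA arrays lie far apart for Scn3b, Sv2c, Gria1 and Slc5a7, and BN lies above F344 in both vessels for Slitrk5 and Gal.

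The channel, receptor and vesicle genes Scn3b, Gria1 and Sv2c were lowest in F344 DA, and the BN DA replicates disagreed. Scn3b had 8.04 and 9.98 in BN DA, 8.45 and 8.56 in BN aorta, 6.76 and 6.78 in F344 DA, and 8.55 and 8.45 in F344 aorta. Gria1 had 8.56 and 10.72 in BN DA, 9.4 and 9.34 in BN aorta, 7.69 and 7.98 in F344 DA, and 8.98 and 8.84 in F344 aorta. Sv2c had 9.19 and 10.59 in BN DA, 10.11 and 10.51 in BN aorta, 7.74 and 7.92 in F344 DA, and 9.54 on both F344 aorta arrays. The endothelial marker mean was also lowest in F344 DA. Against F344 aorta, 3 of the 7 markers fell there at limma adjusted p under 0.05, where 5.12% of all genes fell (median -0.44, against -0.04 for all genes). Their median BN minus F344 difference in DA was 0.56, against 0 for all genes. There 0 of the 7 passed the threshold, where 2.43% of all genes were higher and 2.1% lower. Of 7 epithelial markers, the keratin genes Krt8 and Krt18 fell in F344 DA, by 1.80 and 1.36, but Epcam rose by 0.81. In that list 1 rose and 2 fell at limma adjusted p under 0.05 (8.87% and 5.12% of all genes), and its median was 0.09. The part of these cells in the values of the 9 genes was not tested. In BN, replicate 1 of DA lay below both aorta arrays and replicate 2 above both, for each of the 3 genes. In F344 the DA arrays lay below the aorta arrays, by -1.73 ± 0.47 for Scn3b, -1.08 ± 0.52 for Gria1 and -1.71 ± 0.36 for Sv2c. In BN the same difference was 0.50 ± 0.47 for Scn3b, 0.27 ± 0.52 for Gria1 and -0.42 ± 0.36 for Sv2c. Without BN DA replicate 1 these BN values were 1.47, 1.35 and 0.28, and without BN DA replicate 2 they were -0.47, -0.80 and -1.12, so the direction in BN depended on which array was kept. Between strains, both BN DA arrays lay above both F344 DA arrays, by 2.24 ± 0.47 for Scn3b, 1.81 ± 0.52 for Gria1 and 2.06 ± 0.36 for Sv2c. That strain difference kept its sign without either BN DA array, and Gria1 ranged most, at 2.89 without replicate 1 and 0.73 without replicate 2. In aorta, BN minus F344 was 0.01 ± 0.47 for Scn3b, 0.46 ± 0.52 for Gria1 and 0.77 ± 0.36 for Sv2c, without overlap for the last 2 of these genes. Each SE pools the spread of all 4 groups, so the BN DA gap widens it also where BN DA is not compared. For Scn3b the SD was 1.37 in BN DA, 0.08 in BN aorta, 0.01 in F344 DA and 0.07 in F344 aorta.

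The choline transporter gene Slc5a7 ran the other way between vessels. It had 7.7 and 9.63 in BN DA, 6.25 and 7.39 in BN aorta, 7.65 and 8.07 in F344 DA, and 6.47 and 6.29 in F344 aorta. Every DA array lay above every aorta array, with differences of 1.84 ± 0.54 in BN and 1.48 ± 0.54 in F344. Slc5a7 was the only one of the 9 genes that was higher in DA without overlap, in either strain. Its BN arrays spread widely in both vessels, and the strains overlapped in DA (0.80 ± 0.54) and in aorta (0.44 ± 0.54). The strain difference in DA was 1.77 without BN DA replicate 1 and -0.16 without BN DA replicate 2. Slc18a3, which loads acetylcholine into vesicles in the same terminals, had a DA minus aorta difference of 0.08 ± 0.12 in BN and -0.08 ± 0.12 in F344 (limma adjusted p = 0.855 in BN and 0.704 in F344).

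The adhesion gene Slitrk5 and the neuropeptide gene Gal followed strain in both vessels. Slitrk5 had 8.27 and 7.97 in BN DA, 8.41 and 8.66 in BN aorta, 7.25 and 7.36 in F344 DA, and 7.09 and 7.44 in F344 aorta. Gal had 8.02 and 8.14 in BN DA, 8.26 and 8.68 in BN aorta, 6.83 and 6.99 in F344 DA, and 7.29 and 7.22 in F344 aorta. For both genes all 4 BN arrays lay above all 4 F344 arrays, and 8.51% of all genes were higher in BN in both tissues without overlap within a tissue. Slitrk5 was higher in BN by 0.82 ± 0.17 in DA and by 1.27 ± 0.17 in aorta, and Gal by 1.17 ± 0.16 in DA and by 1.22 ± 0.16 in aorta. Between vessels the Gal difference was -0.39 ± 0.16 in BN and -0.34 ± 0.16 in F344, and that of Slitrk5 was -0.42 ± 0.17 in BN and 0.04 ± 0.17 in F344. Replicate arrays of BN DA differed by -0.29 for Slitrk5 and 0.13 for Gal, far less than for Scn3b or Gria1. The galanin receptor genes did not pass in any contrast, and Galr1 lay between 6.17 and 6.66, Galr2 between 6.18 and 6.44 and Galr3 between 7.23 and 7.62.

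**Figure D3:**
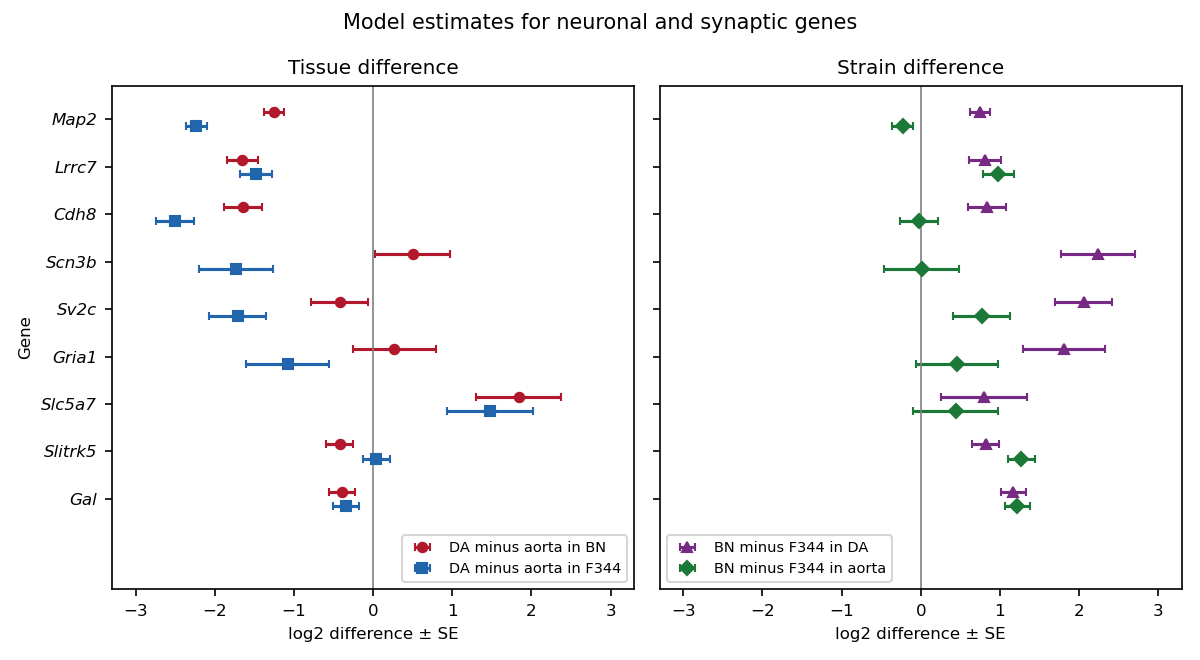
Log2 differences between group means from the model over all genes (horizontal axes, points with SE bars) for the 9 genes (vertical axis), with DA minus aorta on the left and BN minus F344 on the right. Map2, Lrrc7 and Cdh8 lie below 0 in both strains on the left, and Slitrk5 and Gal lie above 0 in both vessels on the right.

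Counted over the set, 5 of the 9 genes passed the threshold of limma adjusted p under 0.05 for DA minus aorta in F344, where 14.0% of all genes did. In BN 3 passed, where 1.81% of all genes did. For BN minus F344, 5 passed in DA (4.53% of all genes) and 2 in aorta (0.159%). These counts changed when 1 array was left out, where the lone array of its group is assumed to vary like the other groups. The differences kept their sign. With 1 F344 array left out, the F344 tissue difference ran from -1.78 to -1.68 for Scn3b and from -1.80 to -1.62 for Sv2c. It ran from -2.31 to -2.14 for Map2, from -1.52 to -1.44 for Lrrc7 and from -2.58 to -2.43 for Cdh8. Without BN aorta replicate 1 the BN tissue difference was -1.19 for Map2, -1.48 for Lrrc7 and -1.44 for Cdh8. Without F344 DA replicate 1 the strain difference in DA was 2.23 for Scn3b, 1.97 for Sv2c, 0.84 for Map2, 0.76 for Slitrk5 and 1.09 for Gal. Without F344 DA replicate 2 it was 2.25, 2.15, 0.67, 0.87 and 1.25. Without overlap between arrays, 1 gene was higher and 7 lower in F344 DA (29.6% and 37.8% of all genes), 1 higher and 5 lower in BN DA against BN aorta (18.7% and 18.5%), 8 higher in BN DA than in F344 DA (25.9%), and 5 higher and 1 lower in BN aorta than in F344 aorta (17.9% and 17.8%). Map2 moved in opposite directions between the strains in DA and in aorta without overlap, as did 7.53% of all genes by tissue or by strain. Since the genes were picked on these contrasts, nothing is read from those counts. The dependence of the tissue difference on strain is made from the same contrasts, so the values of the 9 genes in it are a description too. In that interaction 0 of the 9 genes and 0.0% of all genes passed (smallest limma adjusted p over all genes 0.107). At an unadjusted p under 0.05 there were 4 of the 9 genes, Scn3b, Sv2c, Map2 and Cdh8, and 1403 genes or 9.67% of all. The interaction, the BN minus the F344 tissue difference, was 2.23 ± 0.66 for Scn3b, 1.29 ± 0.51 for Sv2c, 0.98 ± 0.19 for Map2 and 0.86 ± 0.33 for Cdh8. Without BN DA replicate 1 it was 3.20 for Scn3b, 2.43 for Gria1 and 1.99 for Sv2c. Without BN DA replicate 2 it was 1.26 for Scn3b, 0.27 for Gria1 and 0.59 for Sv2c. Either way BN DA was left with 1 array, so these are values with no test.

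The gap between the BN DA replicates, which was one of the reasons for the choice, was itself uneven across the set. On replicate 2 minus replicate 1, Gria1 differed by 2.16, Scn3b by 1.94, Slc5a7 by 1.93 and Sv2c by 1.40, and 0.607% of all genes (88) were at least 1 higher on replicate 2. Gria1 had the highest such difference of all 14506 genes. Cdh8 and Lrrc7 differed by 0.78 and 0.63, and Map2, Gal and Slitrk5 by between -0.29 and 0.20. In the other 3 groups, whose replicate gaps were not part of the choice, Slc5a7 differed by 1.14 in BN aorta, where 0.0689% of all genes were at least 1 higher on replicate 2. The remaining values of the 9 genes in those groups lay between -0.40 and 0.42. Over all genes the replicate gaps of BN aorta correlated with those of BN DA at 0.52, so the BN aorta gaps are not independent of the choice. Of 194 genes in 13 neural lists outside the set, 5 were at least 1 higher on BN DA replicate 2: the synaptic adhesion genes Lrrtm4 (1.53), Slitrk6 (1.11) and Nlgn2 (1.08), and the neurotrophic receptor genes Ntrk2 (1.18) and Gfra2 (1.03), named after their values were seen. On the same arrays 0 of the 194 and 112 of all genes were at least 1 lower, a difference that was not tested. Pan-neuronal genes had a median difference of 0.34 on these arrays, against 0.04 for all genes, and 0 of 19 reached 1. The means of the pan-neuronal (6.79), Schwann cell and glial (7.18), sodium channel (6.35), synaptic adhesion (7.74) and type II cadherin (6.6) lists were highest on BN DA replicate 2. Those of the other neural lists were as high or higher on another array. The cardiomyocyte mean given above was also highest on BN DA replicate 2, with a median difference of 0.14. The part of neural or other cells in these gaps was not tested.

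**Figure D4:**
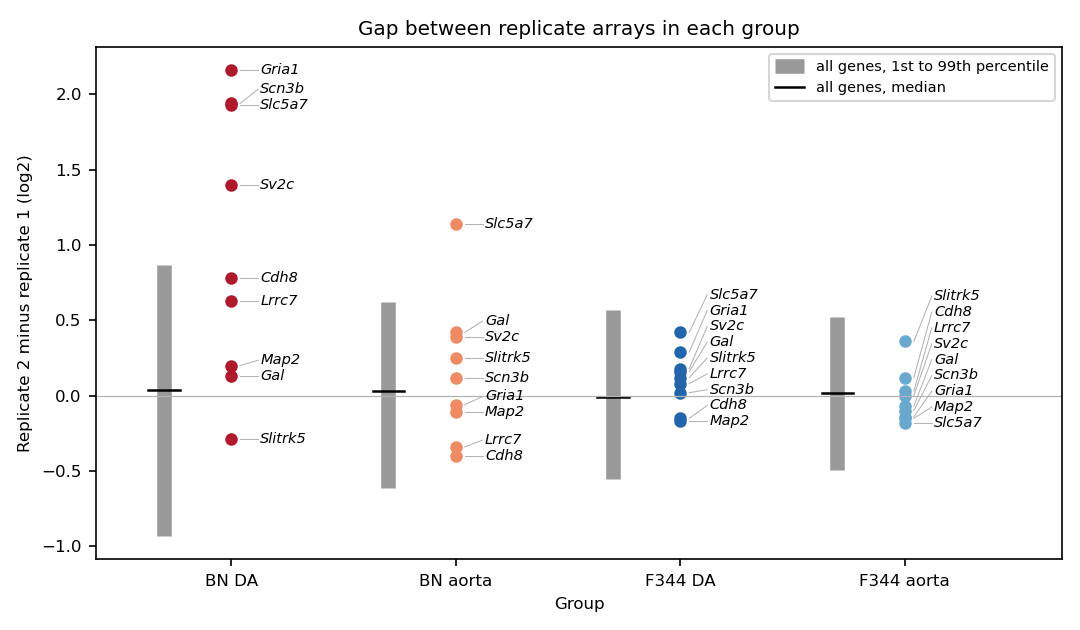
Difference between replicate 2 and replicate 1 on the log2 scale (vertical axis) in each group (horizontal axis), with dots for the 9 genes, grey bars for the 1st to 99th percentile of all genes and black ticks for their median. In BN DA, Gria1, Scn3b, Slc5a7 and Sv2c lie between 1.40 and 2.16, above the 99th percentile of 0.87.

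Across the 8 arrays, Pearson correlations are given as a measure of likeness only, since the arrays form 4 groups. Cdh8 and Map2 correlated at 0.98, Cdh8 and Lrrc7 at 0.92, and Lrrc7 and Map2 at 0.88. Gria1 and Scn3b correlated at 0.97, Sv2c and Scn3b at 0.92, and Gria1 and Sv2c at 0.91. Gal and Slitrk5 correlated at 0.94. Slc5a7 reached at most 0.33, with Gria1. Without BN DA replicate 2 the sign of that pair turned, to -0.68 over the 7 arrays left, as did that of Slc5a7 and Scn3b, at -0.74 against 0.21 over 8. Map2 and Scn3b correlated at 0.94 over these 7 arrays, against 0.56 over 8.

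The genes most like each of the 9 over the 8 arrays were sought among named genes brighter than the median gene. Gal was most like Gfra1, a receptor for the neurotrophic factor GDNF (r = 0.987), then Hadh (0.982) and Crispld1 (0.975). Gfra1 had 8.97 and 9.38 in BN DA, 9.73 and 9.97 in BN aorta, 7.55 and 7.52 in F344 DA, and 8.05 and 7.73 in F344 aorta, so all BN arrays lay above all F344 arrays. Lrrc7 was most like Gria3, another AMPA receptor subunit gene (0.983), followed by Scpep1 (0.983) and Sfxn2 (0.979). Map2 was most like Gli1, a transcription factor of hedgehog signalling (0.995), Ptprj (0.994) and Kat6a (0.992), and Cdh8 most like the fibrillar collagen gene Col5a2 (0.997), Eif4e2 (0.996) and Cyth3 (0.993). Scn3b was most like Psmb5 (0.989), Dpysl3 (0.984) and Gstcd (0.981), Sv2c like Fchsd2 (0.99), Med12l (0.988) and the GABA receptor subunit gene Gabrp (0.988), and Gria1 like Topors (0.983), Frmd4b (0.975) and Fundc2 (0.975). Slc5a7 was most like Slc43a3 (0.964), the tropomyosin gene Tpm4 (0.963) and Ttll1 (0.955), and Slitrk5 like Tada1 (0.976), Frk (0.95) and Aqp3 (0.943).

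Other neural genes, taken from 13 lists of neuronal, synaptic, glial and neurotrophic genes and counted without the 9, moved in both directions between vessels. In F344, 14 of 194 rose and 10 fell in DA against aorta, where 8.87% of all genes rose and 5.12% fell (limma adjusted p under 0.05). The median difference was 0.1 for these genes and -0.04 for all. The split depended on scaling, with 23 higher and 5 lower after centring each array on brighter genes, and 10 higher and 13 lower after repeated quantile normalization. Among the 52 brighter genes 1 rose and 8 fell. Leaving out 1 F344 array gave 7 and 7 (without DA replicate 1), 4 and 5 (without DA replicate 2, and also without aorta replicate 1) or 6 and 5 (without aorta replicate 2). In BN 2 rose and 2 fell in DA (0.986% and 0.82% of all genes), with a median of 0.02, against 0 for all genes. With the 4 arrays of that contrast alone, 0 of the 194 passed in BN. Between BN and F344, 4 were higher and 2 lower in DA (2.43% and 2.1% of all genes), and 1 higher and 0 lower in aorta (0.0827% and 0.0758%). Over these lists there were 35 calls of 27 genes, none of which changed direction under any alternative. Of these calls 8 were kept in every alternative that tested the gene, and each of the others was lost in at least 1. The 8 were all of DA against aorta in F344: Syt1, Syt4, Chrm3 and Scn7a, which rose, and Gfra2, Cadm3, Cdh6 and Dclk1, which fell. Without BN DA replicate 1 the strain split in DA was 13 higher and 3 lower, without BN DA replicate 2 it was 5 and 6, and without either F344 DA array it was 0 and 0.

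Relatives of the 9 genes differed from one another. Among AMPA receptor subunit genes beside Gria1, Gria3 fell in F344 DA by 0.91 (limma adjusted p = 0.0117), with 7.73 and 7.92 in DA and 8.71 and 8.74 in aorta, a call lost under both other scalings. Gria4 fell in BN DA, at 8 and 7.7 against 8.91 and 8.99 in BN aorta (difference -1.10 ± 0.14, limma adjusted p = 0.00786). In F344, Gria4 had 8.65 and 8.46 in DA and 8.76 and 8.79 in aorta, and it was lower in BN DA than in F344 DA by -0.70 ± 0.14, the opposite sign to Gria1. Of 34 glutamate receptor and postsynaptic scaffold genes, 2 rose and 1 fell in F344 DA (8.87% and 5.12% of all genes). The rises were of Grik1, by 0.65, and Grm3, by 0.66, and both calls were lost after repeated quantile normalization. In BN DA 0 rose and 1 fell (0.986% and 0.82% of all genes). Of 10 sodium channel genes beside Scn3b, Scn7a rose in DA in both strains: it had 7.07 and 7.4 in BN DA, 6.01 and 6.44 in BN aorta, 6.75 and 6.73 in F344 DA, and 5.65 and 5.33 in F344 aorta (1.01 ± 0.18 in BN, adjusted p = 0.0313, and 1.25 ± 0.18 in F344, adjusted p = 0.00309, limma). The BN call of Scn7a was lost after centring on brighter genes and with the 4 arrays of the contrast alone. It was also lost without BN DA replicate 2, without BN aorta replicate 1 and without any 1 F344 array. The BN difference of Scn7a ran from 0.79 to 1.22 over the alternatives. Scn7a encodes a sodium channel that is not gated like the others and is expressed in glia.

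Among synaptic vesicle and release genes, synaptotagmins, a family that includes calcium sensors of vesicle fusion, passed in both directions. Syt1 rose in F344 DA, at 8.01 and 7.77 against 6.59 and 6.5 in F344 aorta (1.34 ± 0.16, limma adjusted p = 0.00133). Syt4 rose too, at 7.19 and 6.74 against 5.6 and 5.25 (1.54 ± 0.19, limma adjusted p = 0.00161). In this list of 23 genes 2 rose and 2 fell in F344 DA (8.87% and 5.12% of all genes). Those that fell were Syt11 and the syntaxin gene Stx1a, with differences of -0.66 and -0.68. The Syt11 call was lost under both other scalings and without any 1 F344 array, and that of Stx1a after centring, without F344 DA replicate 1 and without F344 aorta replicate 2. The median of the list was 0, against -0.04 for all genes. Sv2c thus ran opposite in sign to Syt1 and Syt4 in F344.

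Among cholinergic genes, the muscarinic receptor gene Chrm3 shared with Slc5a7 a higher value in DA in both strains. It had 8.5 and 7.79 in BN DA, 6.49 and 7.07 in BN aorta, 8.04 and 7.89 in F344 DA, and 6.51 and 6.52 in F344 aorta. The rise was 1.36 ± 0.24 in BN (limma adjusted p = 0.0286) and 1.45 ± 0.24 in F344 (adjusted p = 0.00517). The BN call of Chrm3 was lost with the 4 arrays of the contrast alone, without BN aorta replicate 1 and without any 1 F344 array. Its BN difference ran from 1.01 to 1.72 over the alternatives. The receptor gene Chrm2 rose by 0.85 ± 0.19 in F344 DA (limma adjusted p = 0.0165). Of 11 cholinergic genes 2 rose and 0 fell in F344 DA (8.87% and 5.12% of all genes), and 1 and 0 in BN DA (0.986% and 0.82%). Of 15 noradrenergic genes 2 rose in F344 DA, Slc6a2, the noradrenaline transporter gene, by 0.71 and Ddc by 0.75, and 1 fell, the neuropeptide Y gene Npy by 1.39. Npy had 8.59 and 7.32 in F344 DA against 9.54 and 9.16 in F344 aorta, and its call was lost under both other scalings. The Ddc call was lost after repeated quantile normalization, at 0.58, and Slc6a2 ran from 0.61 to 0.92 over the alternatives. Neither was among the 8 calls kept in every alternative.

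Adhesion and microtubule genes moved in both directions in F344 DA, and several were low there, as were Cdh8 and Map2. The cadherin gene Cdh6 had 7.28 and 7.2 in F344 DA against 8.59 and 8.25 in F344 aorta (-1.18 ± 0.16, limma adjusted p = 0.00247). Its values in BN were 7.92 and 8.24 in DA and 8.65 and 8.45 in aorta, and BN DA was higher than F344 DA by 0.84 ± 0.16 (adjusted p = 0.0271, limma). Cadm3, a synaptic adhesion gene, fell by 1.38 in F344 DA (limma adjusted p = 0.00481) and was higher in BN DA, at 8.4 and 8.23, than in F344 DA, at 7.38 and 6.75 (1.25, adjusted p = 0.0217, limma). That strain call, like that of Cdh6, was lost without either F344 DA array. Of 7 type II cadherin genes 0 rose and 1 fell in F344 DA (8.87% and 5.12% of all genes), with a median of 0.08. Of 20 synaptic adhesion genes 2 rose, Lrrtm3 by 0.61 and Lrrtm2 by 0.50. In that list 2 fell, Cadm3 and Slitrk4 (-0.68), and the median was 0, against -0.04 for all genes. The Lrrtm2 call was lost after repeated quantile normalization, and that of Slitrk4 after centring. The doublecortin-like kinase gene Dclk1, whose product binds microtubules, fell in DA in both strains, with 9.14 and 9.31 in BN DA, 10.2 and 10.22 in BN aorta, 9.22 and 8.91 in F344 DA, and 10.22 and 10.14 in F344 aorta (-0.98 ± 0.14 and -1.11 ± 0.14, limma adjusted p = 0.0125 and 0.00169). Stmn4, a stathmin gene, fell by 1.55 in F344 DA (limma adjusted p = 0.0122). Of 13 microtubule-associated genes 0 rose and 2 fell in F344 DA, with a median of 0.08. In BN DA 0 rose and 1 fell (0.986% and 0.82% of all genes), with a median of -0.09.

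Among neurotrophic factors and receptors, Gfra2 passed by vessel, and Gfra1 and Ntf3 by strain. Gfra2, a receptor for neurturin, had 7.28 and 7.26 in F344 DA against 9.16 and 9.12 in F344 aorta (-1.87 ± 0.27, limma adjusted p = 0.00283). Gfra1 was higher in BN by 1.64 ± 0.17 in DA (limma adjusted p = 0.0045) and by 1.96 ± 0.17 in aorta (adjusted p = 0.00739). Its DA call was lost without either F344 DA array, and its aorta call without any 1 aorta array. Ntf3, which encodes a neurotrophin, was higher in BN DA than in F344 DA by 0.95 ± 0.22 (limma adjusted p = 0.0455), with 8.87 and 9.55 in BN DA against 8.46 and 8.07 in F344 DA. That call was lost under both other scalings, without BN DA replicate 2 and without any 1 array of the other groups. Of 13 genes in this list 0 rose and 1 fell in F344 DA (8.87% and 5.12% of all genes). Between strains, 2 were higher and 0 lower in BN DA than in F344 DA (2.43% and 2.1%). In aorta 1 was higher in BN (0.0827%). Rest, which encodes the repressor of neuronal genes, had 8.99 and 9.39 in BN DA, 9.47 and 9.38 in BN aorta, 9.08 and 8.71 in F344 DA, and 9.19 and 9.17 in F344 aorta, and 0 of 7 genes of its complex passed in any contrast (0 at limma adjusted p under 0.05).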

How the data were processed

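Expression was measured on 8 Affymetrix Rat Gene 1.0 ST arrays, 2 for each of 4 groups of strain and tissue taken from the labels. The deposited values are log2 signals that the authors made with RMA, per the submitters' processing notes; its version is not given in the sources used here, nor are its settings. RMA corrects background and makes the arrays' distributions alike, so differences are relative to the other genes on an array.

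Of 29215 probe sets, 15310 had 1 gene symbol in the platform annotation of 2016, 323 had several and 13582 were not listed. The brightest probe set stood for each of 14506 genes (527 genes had more than 1 probe set). No filter on low values was applied, so all 9 genes were in the fit. A linear model over the 4 groups was fitted with limma 3.58.1 in R 4.3.3 (lmFit and eBayes), which pools the spread over 4 residual degrees of freedom, with Benjamini-Hochberg adjustment over all genes and a threshold of 0.05. The fit was tested on simulated data. The small number of arrays limits the precision of every value. The labels give no batch.

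The 9 genes, the 13 neural lists and the 8 lists of other cell types were chosen with earlier results of these data known. Besides the 9 genes, up to 4 genes past the threshold were taken from each list by size of difference. Fixed defining markers and the 3 genes most correlated with each of the 9 were added. Not all of these genes are named in the text. Alternatives were a variance trend, dropping dim genes, centring arrays on their brighter genes, quantile normalization once more, averaging probe sets per gene, a replicate block, the 4 arrays of a contrast alone, and leaving out each array. Correlations without BN DA replicate 2 were added after seeing the data. Sequences came from RefSeq.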

Additional observations from a re-analysis of the deposited data

Results flagged for a closer look

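For 11 of the genes named or listed here, the arrays moved in opposite directions without overlap, either DA against aorta in the 2 strains or BN against F344 in the 2 tissues, as did 7.53% of all genes. In limma's test of the interaction (the BN minus the F344 tissue difference) 0 of all genes passed at adjusted p under 0.05, and 1403 had an unadjusted p under 0.05. Map2, the 1 of the 9 genes whose arrays moved in opposite directions, had an interaction of 0.98: BN arrays lay above F344 arrays in DA and below them in aorta. Among neural genes the interaction was -0.88 for Gria4, -0.56 for the galanin-like peptide gene Galp, 0.50 for Stx1a, -0.42 for Dbh, -0.38 for the glial gene Fabp7 and -0.19 for Galr2. It was 0.81 for Gli1, the gene most like Map2. Among markers of other cell types it was 0.86 for Tie1 and 0.77 for Tek, both of endothelium, and -0.80 for Epcam, of epithelium. DA minus aorta was -0.73 in F344 and 0.13 in BN for Tie1, and -0.69 in F344 and 0.08 in BN for Tek. The BN DA arrays had 10.39 and 10.07 for Tie1, and 10.13 and 9.46 for Tek.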

How the results depend on the processing

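The labels do not say what a replicate number shares, and correlations of the replicate differences between groups ran from 0.03 to 0.52, so the pairing is not established. With a replicate block, 2875 genes passed for DA minus aorta in F344, 548 in BN, 1583 for BN minus F344 in DA, 30 in aorta and 2 for the interaction, and 6, 4, 7, 2 and 0 of the 9 genes.

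Counts of genes that moved over 1.5 times were as follows. For F344 DA minus aorta, 628 genes and 2 of the 9 passed among brighter genes only, and 3363 genes with the 4 arrays of the contrast alone. The fit of brighter genes left out Slc5a7, Lrrc7 and Cdh8, so they were not tested in it. Of the F344 tissue calls of the 9 that it did test, only that of Scn3b was lost. For BN DA minus aorta, 170 genes and 1 of the 9, Map2, passed among brighter genes only, again without a test of Lrrc7 and Cdh8. With the 4 arrays alone 16 genes and 0 of the 9 passed. For BN minus F344 in DA, 412 genes passed among brighter genes and 118 with the 4 arrays alone (1 of the 9), and 2 of the 9 after centring. In aorta 56 genes passed with the 4 arrays alone, and 1 of the 9 after centring, against 2. Leaving out 1 array gave 646 to 2850 genes and 3 to 7 of the 9 for F344 DA minus aorta, 16 to 600 and 0 to 6 for BN, 13 to 1233 and 0 to 8 for BN minus F344 in DA, 0 to 69 and 0 to 3 in aorta, and 0 to 56 and 0 to 3 for the interaction. Centring on brighter genes made 87.6% of calls higher in F344 DA, against 63.4%, and 23.7% higher in BN DA than F344 DA, against 53.7%, with the median difference of all genes at 0.16, against -0.04, and at -0.15, against 0.

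Signs turned when 1 array was left out, as these ranges over single arrays show. For DA minus aorta in BN, Sv2c ran from -1.12 (without BN DA replicate 2) to 0.28 (replicate 1), Scn3b from -0.47 (replicate 2) to 1.47 and Gria1 from -0.80 (replicate 2) to 1.35. In F344, Slitrk5 ran from -0.14 (without aorta replicate 1) to 0.22, and was -0.02 without DA replicate 2. For BN minus F344, Slc5a7 ran from -0.16 (without BN DA replicate 2) to 1.77 in DA and from -0.13 (without BN aorta replicate 2) to 1.01 in aorta. In aorta Scn3b ran from -0.05 (without BN aorta replicate 2) to 0.07 and Cdh8 from -0.22 to 0.18 (without BN aorta replicate 2), at -0.04 and 0.04 without F344 aorta replicate 2. The interaction of Lrrc7 ran from -0.48 to 0.15 (without BN DA replicate 1), that of Gal from -0.26 to 0.16 (without BN aorta replicate 2), and that of Slc5a7 from -0.60 (without BN DA replicate 2) to 1.33. After quantile normalization the interaction was 0.15 for Lrrc7 and 0.00 for Gal. The BN tissue calls of Map2, Lrrc7 and Cdh8 were lost without BN aorta replicate 1, at -1.19, -1.48 and -1.44. The cause was not tested, beyond the fewer arrays or genes in each.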
